A study of Homo sapiens with 24 samples.

Results

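The genes described here are 34 that handle glucose and pyruvate: the glucose transporters, the glycolytic enzymes, lactate dehydrogenase and the lactate exporters, the mitochondrial pyruvate carrier, and the pyruvate dehydrogenase complex with its kinases and phosphatases. They were chosen by symbol from a gene table of 57820 genes, and all 34 were found in it and passed the filter on low reads. mRNA was sequenced from HUES6, an established human embryonic stem cell line, in 24 libraries, 3 for each of 8 groups. The groups, all grown in the same FTDA medium, were RBPMS KO cells 3, 6 and 48 h into mesoderm induction, WT cells at those hours, and KO and WT cells at 0 h, labelled as controls. Induction was with 1.5 ng/ml of the growth factor BMP4 and 1.5 µM of CHIR, which activates WNT signalling by blocking the kinase GSK3. RBPMS encodes an RNA-binding protein. The labels do not give the change made to the gene, the number of KO clones or whether libraries of 1 group are independent cultures; p-values therefore measure the spread between these libraries.

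Glycolysis splits glucose into pyruvate in the cytosol. Lactate dehydrogenase can reduce pyruvate to lactate, which leaves the cell through monocarboxylate transporters, or the mitochondrial pyruvate carrier can bring it to the pyruvate dehydrogenase complex, which makes acetyl-CoA for the tricarboxylic acid cycle. Pyruvate dehydrogenase kinases switch the complex off by phosphorylation and pyruvate dehydrogenase phosphatases switch it back on. Human pluripotent stem cells are known for high glycolysis and lactate release, and several of the genes are textbook targets of the hypoxia-inducible factors and of MYC.

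The libraries held 29896358 to 50451908 reads, and all levels below are CPM, reads scaled to the total of a library, as deposited. RBPMS mRNA was not lower in KO than in WT cells at 0 h, at 153 to 158 CPM in KO and 121 to 155 CPM in WT libraries, and at 48 h it was 80.6 to 92.5 CPM in KO and 95.4 to 104 CPM in WT libraries. As the changed part of the gene is not given, these values do not check the genotype, which rests on the labels. Pluripotency markers were present in every library, and at 48 h the summed primitive streak and mesoderm markers reached 1019 to 1143 CPM in KO and 1647 to 1840 CPM in WT libraries, while neuroectoderm markers stayed under 1 CPM. WT 0 h library 1 stood apart: its correlation with its mates across genes was 0.975 to 0.978, against 0.995 to 0.998 for most pairs. KO 3 h library 3, at 0.988 to 0.989, and WT 48 h library 3, at 0.991, stood apart less.

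The 34 genes together took 2.67%, 2.77% and 2.82% of the reads in the KO 0 h libraries, and 3.04%, 1.60% and 1.75% in WT 0 h libraries 1, 2 and 3. So the KO libraries were alike, while WT 0 h library 1 lay above all of them and its mates far below. At 3 h the share was 2.03% to 2.18% in KO and 2.37% to 2.47% in WT libraries, and at 6 h it was 1.97% to 2.00% in KO and 2.08% to 2.23% in WT libraries. At 48 h it was 2.75% to 2.90% in KO and 2.48% to 2.54% in WT libraries. The KO libraries lay below every WT library at 3 and 6 h and above every WT library at 48 h.

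**Figure D1:**
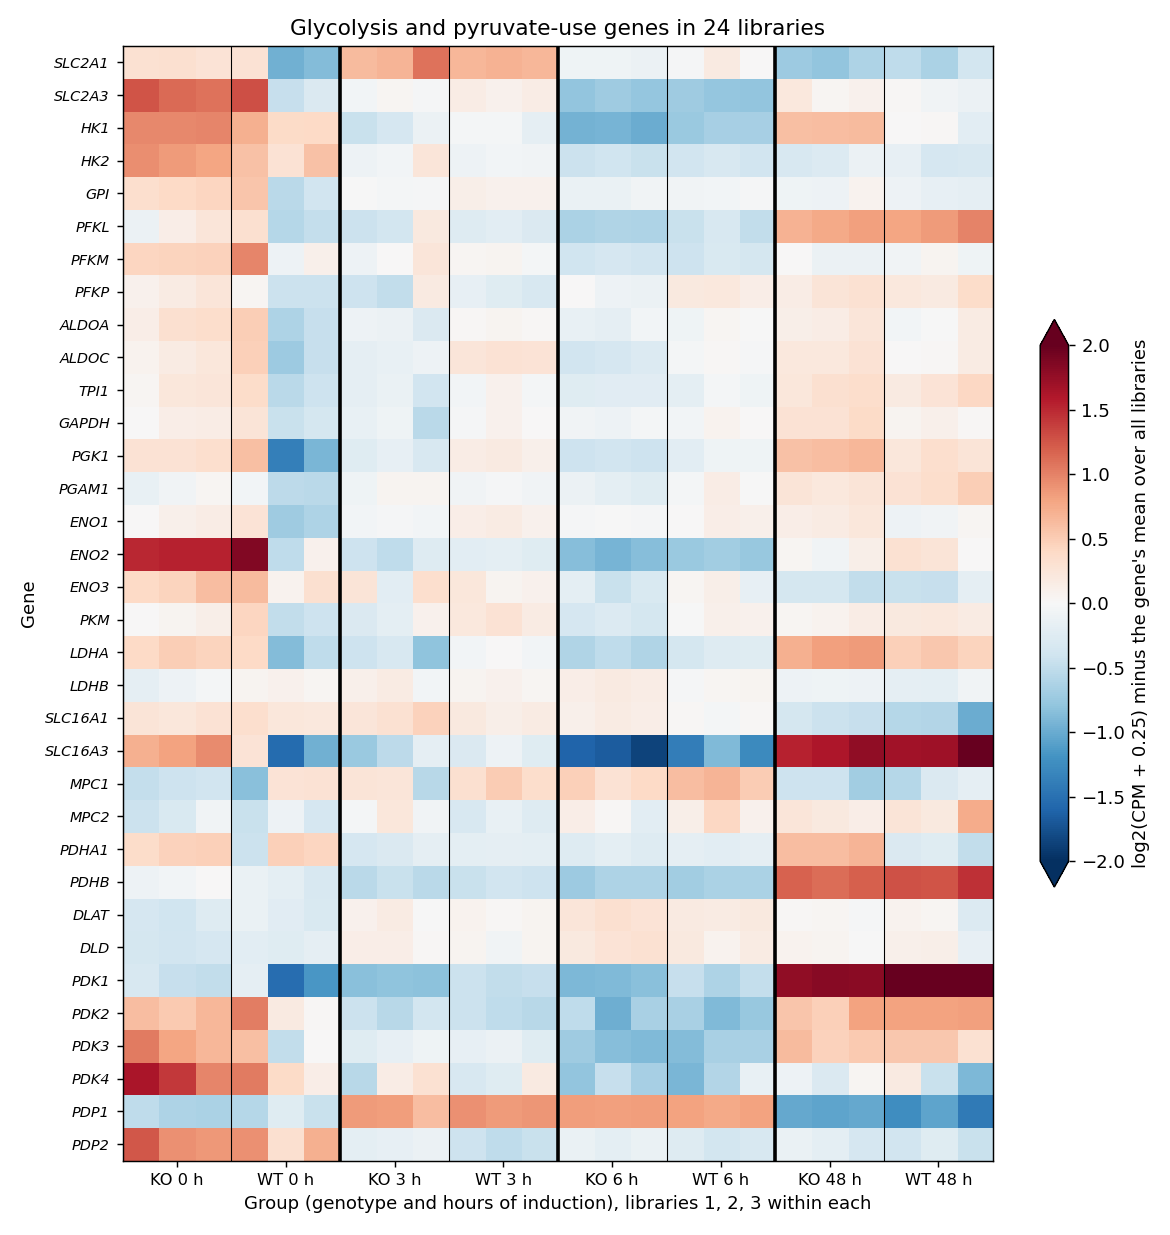
Level of each of the 34 genes (rows, by role) in each of the 24 libraries (columns), as log2 CPM minus the gene's mean over all libraries. WT 0 h library 1 looks unlike its mates for most glycolytic genes, and the PDK1 row is highest at 48 h.

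Before induction, many glucose uptake, glycolysis and lactate export genes read higher in KO than in WT cells with all libraries in the fit. The calls, the sizes and for some genes the direction rested on which WT 0 h libraries were used. Of the 34 genes, 18 were called higher and 0 lower (limma, adjusted p under 0.05 over 19835 genes), where 8.77% of all genes tested were called higher and 6.52% lower. The median log2 difference, KO minus WT, was 0.42 over the 34 genes and 0.01 over all genes. With only the 6 libraries of 0 h in the fit, no member was called and 1.06% of all genes were. Without WT 0 h library 1, 25 members were higher and 1 lower, with 33.1% of all genes called; with that library as the only WT 0 h library, 3 were higher and 2 lower, with 15.9% called, the lone library being assumed to vary like the other groups. In bulk RNA a difference between cells and a difference in the share of cells of a type cannot be told apart. Summed pluripotency markers at 0 h were 8194 to 8482 CPM in KO and 6846 to 7936 CPM in WT libraries. NANOG, LIN28A and TDGF1 were higher in every KO library, while POU5F1, SOX2 and DPPA4 overlapped. Summed fibroblast and stroma markers were 633 to 662 CPM in KO against 869, 490.5 and 499 CPM in WT libraries 1, 2 and 3. Among them, COL1A1 and COL1A2 were higher in every KO library, at 264 to 282 against 127 to 158 CPM for COL1A1. THY1 was at 244 to 261 CPM in KO and 245 to 651 CPM in WT libraries, and DCN and LUM were at 0. The part of these markers in the differences was not tested.

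Both glucose transporters were called higher in KO cells at 0 h. SLC2A3, the high-affinity transporter GLUT3 (hg38 chr12:7919230-7936275, minus strand), had 2893, 2636 and 2573 CPM in KO 0 h libraries, against 2945, 874 and 990.0 CPM in WT 0 h libraries. SLC2A1, the widespread transporter GLUT1 (chr1:42925375-42959176, minus strand), had 606, 614 and 595 CPM in KO libraries, against 599.9, 252 and 271 CPM in WT libraries. For both genes WT library 1 was level with the KO libraries and its mates were far below them. The log2 difference was 1.04 ± 0.25 (SE) for SLC2A3 (limma, adjusted p = 0.00742) and 0.86 ± 0.20 for SLC2A1 (adjusted p = 0.00531). Without WT 0 h library 1 they were 1.56 and 1.24, and against that library alone −0.08 and 0.06. The SLC2A1 call was lost without WT 0 h library 2 (0.64, adjusted p = 0.0538), and the SLC2A3 call without WT 0 h library 2 (0.71, adjusted p = 0.0734) or library 3 (0.80, adjusted p = 0.0549).

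Hexokinase, which traps glucose in the cell as its phosphate, was a step whose calls held under all 3 choices of WT 0 h libraries. HK1 (chr10:69269984-69401884, plus strand) had 716, 716 and 725 CPM in KO 0 h libraries, against 602, 476 and 482 CPM in WT 0 h libraries. HK2, the inducible isozyme, had 296, 281 and 270.0 CPM in KO and 234, 191 and 234 CPM in WT libraries. Every KO library lay above every WT library for both. The log2 difference was 0.53 ± 0.09 for HK1 (limma, adjusted p = 0.000537) and 0.42 ± 0.09 for HK2 (adjusted p = 0.00345). Against WT 0 h library 1 alone they were 0.31 (adjusted p = 0.049) and 0.32 (adjusted p = 0.0394), and no single 0 h library took away either call when left out.

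In the middle of the pathway, WT 0 h library 1 lay near or above the KO libraries. GPI, which turns glucose 6-phosphate into fructose 6-phosphate, had 449, 471 and 478 CPM in KO and 524, 246 and 274 CPM in WT 0 h libraries. The phosphofructokinase isoform PFKP, at the committed step, had 120.0, 127 and 134 CPM in KO and 116, 83.6 and 84 CPM in WT libraries. ALDOA, the main aldolase, had 1223, 1390.4 and 1428 CPM in KO and 1571, 723 and 812 CPM in WT libraries. WT library 1 lay above every KO library for GPI and ALDOA, and just below them for PFKP. The log2 differences were 0.56 ± 0.16 for GPI, 0.50 ± 0.14 for PFKP and 0.52 ± 0.18 for ALDOA (limma, adjusted p = 0.021, 0.0164 and 0.0477). Without WT 0 h library 1 they were 0.87, 0.62 and 0.84, and against it alone −0.12, 0.18 and −0.18. PFKL and PFKM, the other phosphofructokinases, the brain-type aldolase ALDOC, triose phosphate isomerase TPI1 and GAPDH, which makes the first NADH of glycolysis, differed by 0.17 to 0.44 and were not called. Leaving out WT 0 h library 1 brought all 5 past the threshold. Each of the calls of GPI, ALDOA, PGK1, ENO1, PDHB and PDK1 was lost without any 1 of the other 5 libraries of 0 h (adjusted p up to 0.322), those of PFKP, PGAM1, ENO2 and PDK4 without 4 of them, and that of PDP2 without 2.

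Among the later enzymes, PGK1 and ENO2 had the widest spread in WT cells. PGK1 (chrX:77910739-78129296, plus strand), which makes the first ATP of the pathway, had 2377, 2385 and 2469 CPM in KO 0 h libraries, against 2948, 758 and 1037 CPM in WT 0 h libraries. ENO2, the neuronal enolase (chr12:6913745-6923698, plus strand), had 343, 351 and 353 CPM in KO and 437, 85.1 and 127 CPM in WT libraries. In both cases the 3 KO libraries were within a narrow band, and the WT libraries lay on either side of it. The log2 difference was 0.92 ± 0.27 for PGK1 (limma, adjusted p = 0.0225) and 1.11 ± 0.31 for ENO2 (adjusted p = 0.0191). Without WT 0 h library 1 they were 1.47 and 1.77, and against it alone −0.24 and −0.28. The phosphoglycerate mutase PGAM1 and the main enolase ENO1 were called at 0.37 ± 0.11 and 0.49 ± 0.17 (adjusted p = 0.0221 and 0.0476). ENO3, the muscle enolase, and PKM, the pyruvate kinase of these cells, were not called, at 0.20 ± 0.15 and 0.27 ± 0.16.

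Of the 4 lactate dehydrogenase and lactate transporter genes, LDHA and SLC16A3 were called higher in KO cells at 0 h, with SLC16A3 the largest difference of all 34. SLC16A3, the lactate exporter MCT4 (chr17:82228397-82261129, plus strand), had 59.2, 63.4 and 70.1 CPM in KO 0 h libraries, against 43.8, 12.2 and 18.4 CPM in WT 0 h libraries. LDHA, the muscle-type lactate dehydrogenase subunit (chr11:18394388-18408425, plus strand), had 2657, 2826 and 2748 CPM in KO and 2661, 1102 and 1424 CPM in WT libraries. Every KO library lay above every WT library for SLC16A3, while WT library 1 sat within the KO range for LDHA. The log2 difference was 1.62 ± 0.28 for SLC16A3 (limma, adjusted p = 0.000375) and 0.82 ± 0.19 for LDHA (adjusted p = 0.0057). Without WT 0 h library 1 they were 2.10 and 1.16, and against it alone 0.60 (adjusted p = 0.0546) and 0.09. The LDHA call was lost without WT 0 h library 2 (0.54, adjusted p = 0.0571). LDHB, the heart-type subunit, and SLC16A1, the transporter MCT1, were not called, at −0.11 ± 0.08 and 0.05 ± 0.09.

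Of the 12 genes on the mitochondrial side, 5 were called higher in KO cells at 0 h: PDK1, PDK3, PDK4, PDP2 and PDHB. PDK1 (chr2:172555373-172608669, plus strand), an inhibitory kinase of pyruvate dehydrogenase, had 141, 127 and 125 CPM in KO 0 h libraries, against 156, 60.9 and 78.3 CPM in WT 0 h libraries. PDK3, another of these kinases, had 66, 55.8 and 50.8 CPM in KO and 49, 22.8 and 32.1 CPM in WT libraries. The phosphatase subunit PDP2 had 77.8, 62 and 59.9 CPM in KO and 61.6, 40.9 and 53.6 CPM in WT libraries. Of these 3 genes, PDK3 had every KO library above every WT library, and the groups overlapped for PDK1 and PDP2. The log2 differences were 0.58 ± 0.19 for PDK1, 0.84 ± 0.17 for PDK3 and 0.42 ± 0.11 for PDP2 (limma, adjusted p = 0.041, 0.00145 and 0.0161). Without WT 0 h library 1 they were 0.95, 1.10 and 0.52, and against it alone −0.20, 0.27 and 0.15. PDK4, the kinase best known from fasting, was called at 0.86 ± 0.28 (adjusted p = 0.0406) but never passed 1.47 CPM in any library. PDHB, the E1 beta subunit, was called at 0.23 ± 0.08 (adjusted p = 0.0483), with every KO library above every WT library.

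PDHA1, the E1 alpha subunit that the kinases phosphorylate (chrX:19343893-19361705, plus strand), ran the other way within the WT group. It had 183, 195 and 198 CPM in KO 0 h libraries, against 105, 197 and 189.9 CPM in WT 0 h libraries. WT libraries 2 and 3 were level with KO, and library 1 was below all of them. The difference was not called with all libraries, at 0.33 ± 0.14, was 0.01 without WT library 1, and was 0.91 against that library alone. MPC1 and MPC2, the subunits of the pyruvate carrier, DLAT and DLD, the E2 and E3 subunits of the complex, the kinase PDK2 and the phosphatase subunit PDP1 were not called, with differences of −0.28 to 0.25.

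Set gene by gene against the 3 KO 0 h libraries, WT 0 h library 1 lay above the KO range for 19 of the 34 genes, within it for 6 and below it for 9, against 40.1%, 28.1% and 31.8% of all genes tested. WT 0 h libraries 2 and 3 both lay below every KO library for 26 of the 34, where 26.3% of all genes tested did so. Library 1 exceeded both mates by more than 1.5 times for 19 of the 34, where 13% of all genes did so. All 3 KO libraries exceeded all 3 WT libraries for 6 of the 34 and lay below them for 2, where 10.1% and 15.6% of all genes did so. Reads from the mitochondrial genome were 4.64% in WT 0 h library 1, 7.22% and 7.36% in its mates, and 6.67% to 7.36% in the KO 0 h libraries, and their part in these differences was not tested.

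**Figure D2:**
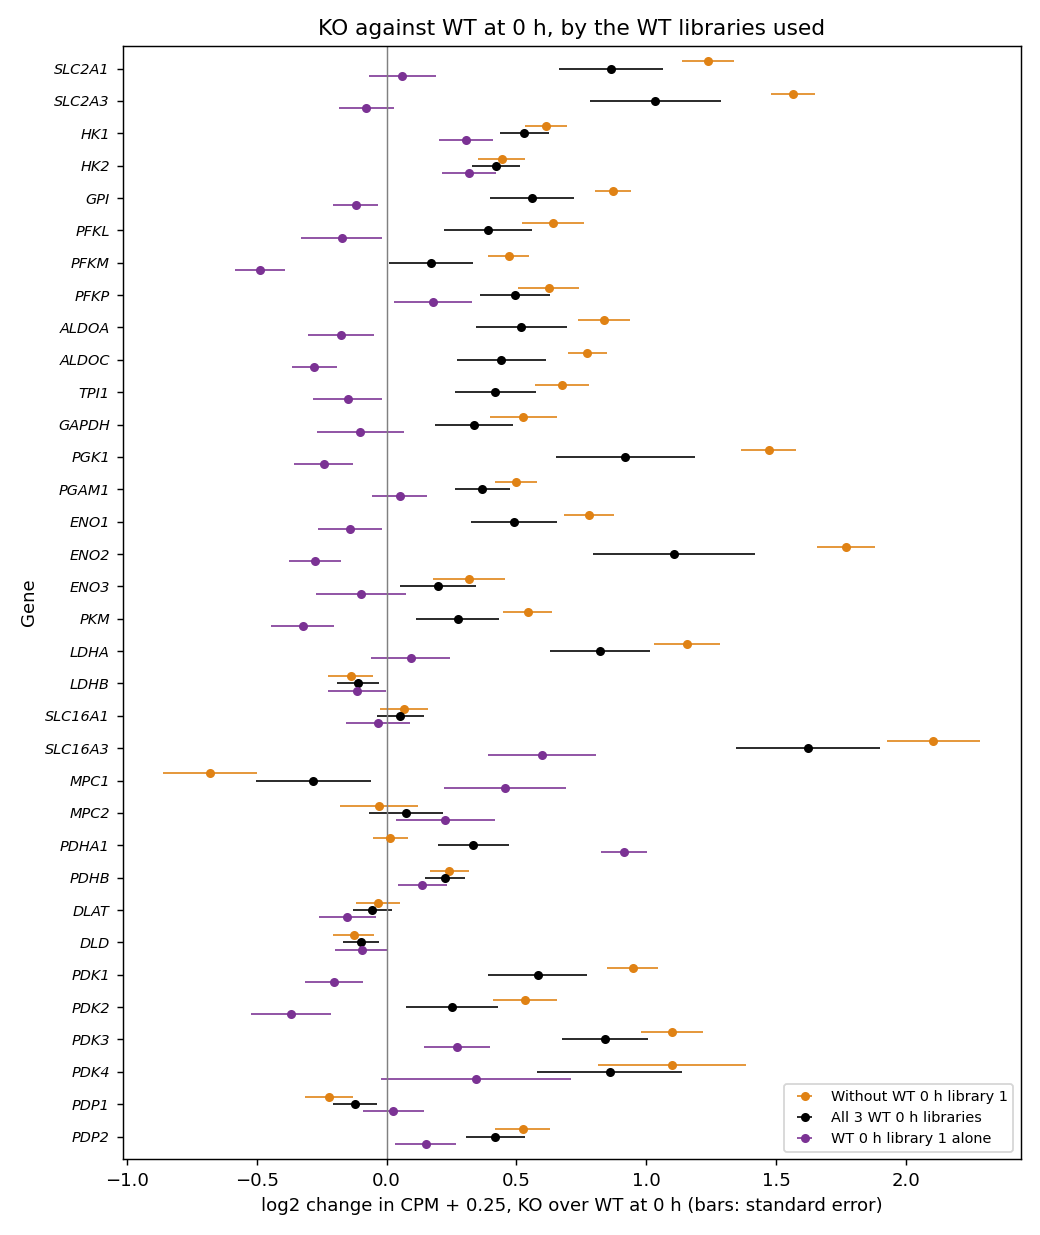
Log2 difference, KO minus WT at 0 h, of each of the 34 genes with all libraries, without WT 0 h library 1, and against that library alone. SLC16A3, HK1 and HK2 were among the genes that stayed above 0 under all 3 choices. SLC2A3, PGK1 and ENO2 were among those that fell below 0 against WT 0 h library 1 alone.

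Because many of these genes moved together between libraries, their promoters were searched for ACGTG, the core letters of sites bound by hypoxia-inducible factors, which also lie within CACGTG, a site bound by MYC. The search covered 250 bases before each start in the RefSeq promoter table (GRCh38.p14) and both strands, so CACGT on the printed strand also counts and CACGTG counts for both. At least 1 window held a match in 18 of the 31 members in the table (58.1%), against 5935 of 27305 genes (21.7%). Counted by window, 21 of 62 member windows held it (33.9%), against 6501 of 35116 windows (18.5%). A gene with more windows had more places for a match, and the comparison took in all RefSeq genes searched, not only those tested here. SLC2A3, SLC16A1 and PDP1 were not in the table. A match describes letters and is not evidence of binding. The stretches below, with the matched letters in capitals, are shown for 3 members with a wide gap between WT 0 h library 1 and its mates (SLC16A3, PGK1 and LDHA) and 2 with a narrow gap (HK2 and LDHB); parts of a window in annotated untranslated exons are not printed. They read 5′ to 3′ on the gene's strand, from RefSeq, and lie at chr17:82228792-82229031 (plus) for SLC16A3, chrX:78103998-78104173 (plus) for PGK1, chr11:18394313-18394387 (plus) for LDHA, chr2:74834920-74835169 (plus) for HK2 and chr12:21657843-21658092 (minus) for LDHB.
SLC16A3: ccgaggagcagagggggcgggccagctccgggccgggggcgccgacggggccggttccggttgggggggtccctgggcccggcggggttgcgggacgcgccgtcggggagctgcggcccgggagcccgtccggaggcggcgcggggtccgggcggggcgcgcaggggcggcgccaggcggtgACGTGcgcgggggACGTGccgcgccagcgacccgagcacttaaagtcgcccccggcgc
PGK1: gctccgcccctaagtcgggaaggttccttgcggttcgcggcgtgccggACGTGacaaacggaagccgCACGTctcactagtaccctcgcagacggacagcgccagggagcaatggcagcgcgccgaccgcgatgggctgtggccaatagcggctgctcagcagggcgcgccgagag
LDHA: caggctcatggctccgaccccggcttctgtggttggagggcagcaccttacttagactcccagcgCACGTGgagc
HK2: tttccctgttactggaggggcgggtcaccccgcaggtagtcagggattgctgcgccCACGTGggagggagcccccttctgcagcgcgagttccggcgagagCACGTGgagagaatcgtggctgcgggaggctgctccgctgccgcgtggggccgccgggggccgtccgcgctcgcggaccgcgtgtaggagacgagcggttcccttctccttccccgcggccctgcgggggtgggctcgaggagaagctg
LDHB: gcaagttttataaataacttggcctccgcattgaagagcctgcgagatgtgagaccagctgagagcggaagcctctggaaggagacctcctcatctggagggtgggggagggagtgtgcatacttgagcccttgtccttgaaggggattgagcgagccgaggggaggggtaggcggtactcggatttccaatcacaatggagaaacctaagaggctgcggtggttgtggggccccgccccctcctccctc
SLC16A3 and PGK1 held 2 matches each in the printed stretch, LDHA held 1 CACGTG that counts as 2 matches, HK2 held 4 and LDHB held 0. The whole LDHA window, with the part not printed, held 5. For a gene with several windows, the stretch printed was the one with the most matches. The other windows of SLC16A3 and LDHA held 0 matches, and that of HK2 held 2. The genes shown are examples. Other members with a wide gap included SLC2A1, ENO1 and PKM with 0 matches, and ENO2 and GPI with 1 each. Other members with a narrow gap included DLD with 0 matches, DLAT with 1 and PDHB with 3. Whether matches go with the gap was not tested. LDHB had 1158, 1209.7 and 1264 CPM in KO 0 h libraries, against 1355, 1379 and 1335 CPM in WT 0 h libraries, with WT library 1 between its mates.

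At 3 h no member was called between KO and WT in either direction, while 2.78% of all genes were, and 5 members had an unadjusted p under 0.05. edgeR and DESeq2 on the recovered reads also called 0. LDHA had 1505, 1608 and 1158 CPM in KO 3 h libraries, against 1945, 2021 and 1942 CPM in WT 3 h libraries, and ALDOC had 80, 80.9 and 84.2 CPM in KO and 107, 109.9 and 109 CPM in WT libraries. The KO libraries lay below all WT libraries for both genes, at log2 differences of −0.48 ± 0.19 and −0.41 ± 0.17 (limma, adjusted p = 0.221 and 0.25). PGK1 had 1652, 1734 and 1568 CPM in KO and 2153, 2217 and 2095 CPM in WT libraries, and PDK1 had 98.1, 101 and 99.5 CPM in KO and 131, 125 and 128 CPM in WT libraries. These groups did not overlap either, at −0.38 ± 0.27 and −0.36 ± 0.19. In all, 13 of the 34 members were below every WT library in every KO library and 3 were above, where 11% and 13.1% of all genes were. Without the 3 libraries that stood apart, 8 members were called, where 9.19% of all genes were.

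At 6 h the limma fit again called 0 members, with 2.45% of all genes called, 3 members at an unadjusted p under 0.05, and 0 by edgeR and by DESeq2. PKM had 1475, 1542 and 1465 CPM in KO 6 h libraries, against 1867, 2000.5 and 1981 CPM in WT 6 h libraries, a log2 difference of −0.38 ± 0.16 (adjusted p = 0.366). HK1 had 191, 192 and 184 CPM in KO and 220.3, 232 and 232 CPM in WT libraries, at −0.27 ± 0.09 (adjusted p = 0.197), so its direction was opposite to that at 0 h. For both genes every KO library lay below every WT library. SLC16A3 had 11.7, 11.2 and 9.8 CPM in KO and 13.6, 19.6 and 14.7 CPM in WT libraries, at −0.52 ± 0.28 (adjusted p = 0.56). KO lay wholly below WT for 17 of the 34 members and wholly above for 5, where 14.9% and 15.3% of all genes did. With only the 6 libraries of 6 h in the fit, 14 members were called lower and 0 higher, with 15.8% of all genes called.

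**Figure D3:**
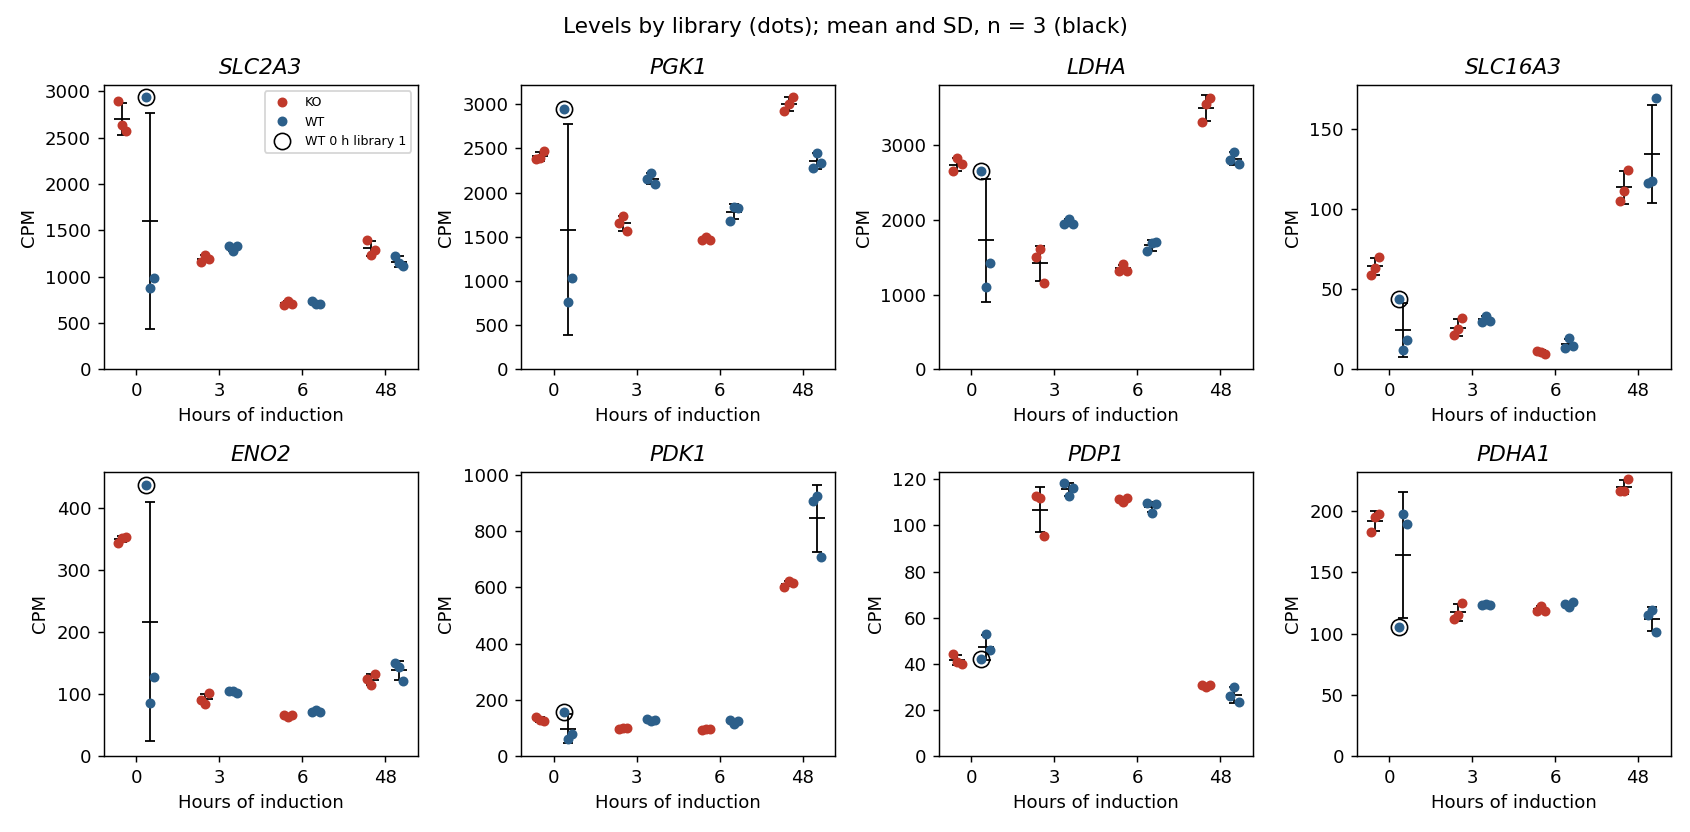
CPM in each library at 0, 3, 6 and 48 h for SLC2A3, PGK1, LDHA, SLC16A3, ENO2, PDK1, PDP1 and PDHA1. KO is left of WT at each hour, with group means and SD. The WT 0 h points are split for SLC2A3, PGK1, ENO2, LDHA and PDK1, and PDHA1 separates KO from WT at 48 h.

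At 48 h, 3 members were called higher in KO than in WT cells and 0 lower, where 6.86% of all genes were called higher and 5.07% lower. PDHA1 had 217, 216 and 226 CPM in KO 48 h libraries, against 116, 119.7 and 101 CPM in WT 48 h libraries. HK1 had 555, 563 and 567 CPM in KO and 369, 374 and 317 CPM in WT libraries. The groups were far apart for both genes. The log2 difference was 0.99 ± 0.14 for PDHA1 (limma, adjusted p = 1.74e-05) and 0.69 ± 0.09 for HK1 (adjusted p = 1.5e-05), and leaving out any 1 library of 48 h kept both calls. SLC16A1, which had 617, 586 and 577 CPM in KO and 531, 525 and 397 CPM in WT libraries, was called at 0.32 ± 0.09 (adjusted p = 0.0175). That call was lost without WT 48 h library 3 (0.21, adjusted p = 0.126) and without KO 48 h library 1.

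The rest of the pathway at 48 h did not pass the threshold. LDHA had 3309, 3559 and 3637 CPM in KO 48 h libraries, against 2805, 2914 and 2746 CPM in WT 48 h libraries, and PGK1 had 2919, 3005 and 3079.8 CPM in KO and 2282, 2451 and 2336 CPM in WT libraries. PDK1 had 602, 623 and 615 CPM in KO and 905, 924 and 708 CPM in WT libraries. The groups did not overlap for LDHA and PGK1, which were higher in every KO library, or for PDK1, which was lower in every KO library. None was called, at 0.33 ± 0.19, 0.37 ± 0.27 and −0.43 ± 0.19 (limma, adjusted p = 0.323, 0.45 and 0.163). Over the 34 members, KO lay wholly above WT for 9 and wholly below for 5, where 16.2% and 19.7% of all genes did. Without the 3 libraries that stood apart, 12 members were called, where 23.8% of all genes were. At this hour TBXT, the primitive streak factor, was at 52.5 to 59.6 CPM in KO and 228 to 270 CPM in WT libraries, summed pluripotency markers were 5780 to 5977 CPM in KO and 4514 to 4641 CPM in WT libraries, and summed endoderm markers were 84.0 to 94.2 CPM in KO and 50.6 to 63.3 CPM in WT libraries; their part in the HK1 and PDHA1 differences was not tested.

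At 48 h against 0 h, PDK1 had the largest log2 change of the 34 genes in KO and in WT cells. It averaged 131 ± 8.69, 99.6 ± 1.47, 95.9 ± 2.3 and 614 ± 10.4 CPM at 0, 3, 6 and 48 h in KO cells, and 98.4 ± 50.6, 128 ± 2.71, 123 ± 7.56 and 846 ± 119 CPM in WT cells (SD, n = 3 each). All 6 libraries of 48 h lay above every earlier library. The log2 change at 48 h against 0 h was 2.17 ± 0.19 in KO cells (limma, adjusted p = 2.19e-09) and 3.19 ± 0.19 in WT cells (adjusted p = 2.04e-12). The WT change was 3.57 without WT 0 h library 1 and 2.42 against it alone, both past the threshold. PDHB, one of the E1 subunits (chr3:58427630-58433857, minus strand), was the other large rise on the mitochondrial side. It had 345, 332 and 351 CPM in KO 48 h libraries, against 143, 147 and 154 CPM in KO 0 h libraries, and 367, 364 and 421 CPM in WT 48 h libraries, against 139, 133 and 122 CPM in WT 0 h libraries. The log2 change was 1.16 ± 0.08 in KO and 1.52 ± 0.08 in WT cells (adjusted p = 1.86e-11 and 8.58e-14).

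Among all 34 genes, 7 rose and 12 fell at 48 h against 0 h in KO cells, where 25.4% of all genes rose and 27.4% fell. In WT cells 12 rose and 9 fell, where 26.8% of all genes rose and 26.5% fell. The same comparison in WT cells gave 22 higher and 9 lower without WT 0 h library 1, with 57.4% of all genes called, and 6 higher and 16 lower against that library alone, with 46.3% called. At 3 h, 6 rose and 14 fell in KO cells (33.1% and 32.6% of all genes), and 11 rose and 4 fell in WT cells (28.6% and 27.1%). On CPM as deposited, with no scaling factor, these were 4 and 19 in KO cells and 10 and 6 in WT cells. At 6 h, 6 rose and 18 fell in KO cells (33.4% and 35.1%), and 10 rose and 10 fell in WT cells (31.1% and 31%). The comparisons of KO with WT at 0 h and of each later hour with 0 h share the 0 h libraries.

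**Figure D4:**
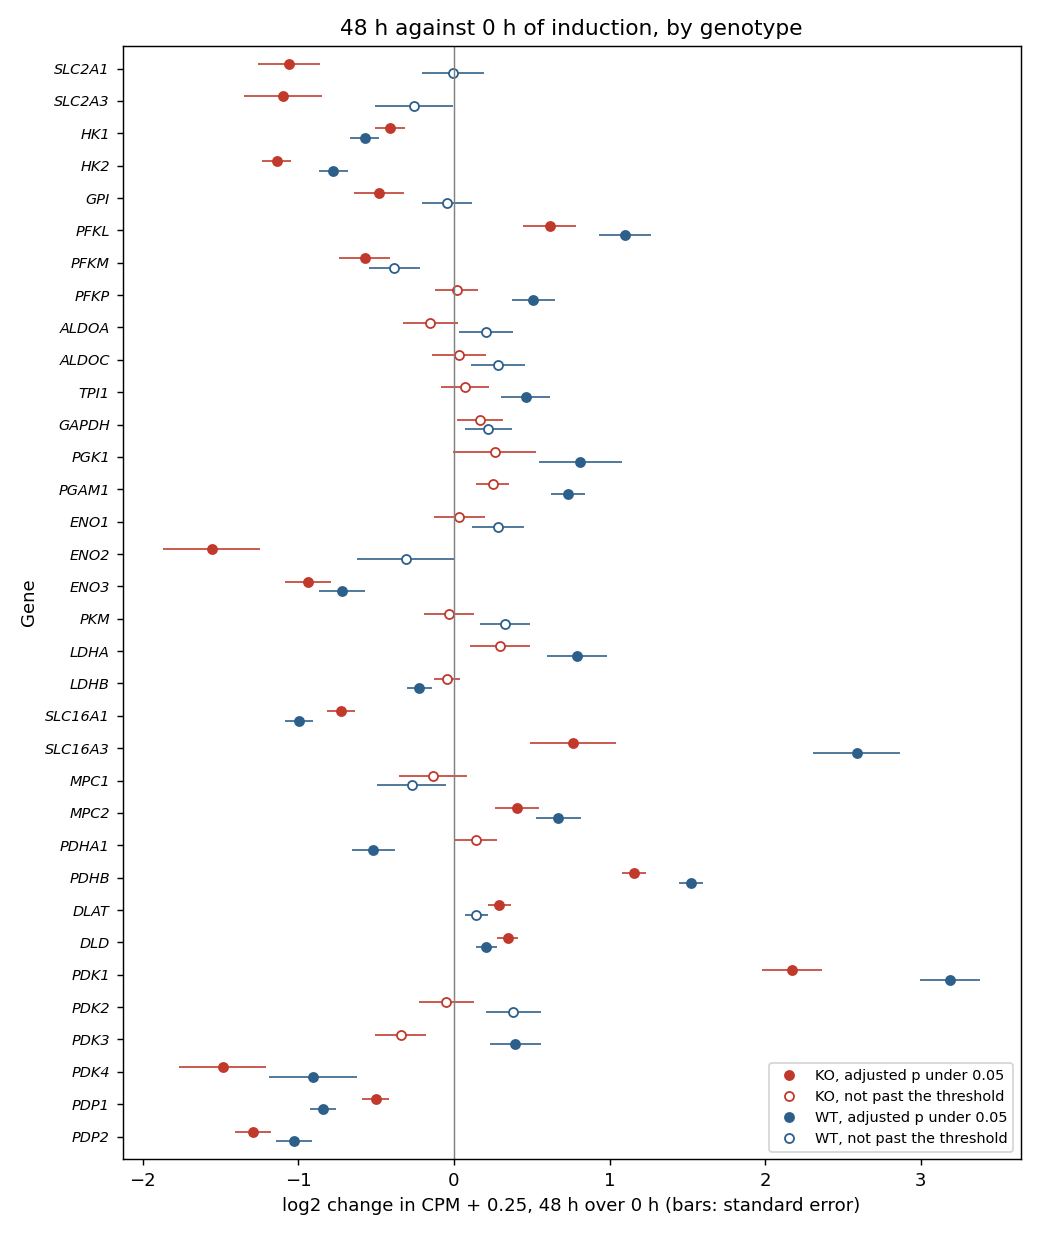
Log2 change at 48 h against 0 h of each of the 34 genes, in KO and in WT cells, with standard errors. PDK1, SLC16A3 and PDHB lie farthest to the side of a rise, and PDP2 and HK2 fell in both genotypes.

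The hexokinases fell in both genotypes. HK2 averaged 282 ± 13.2, 161 ± 21.5, 116 ± 1.77 and 133 ± 10.2 CPM at 0, 3, 6 and 48 h in KO cells, and 219.7 ± 24.9, 148 ± 1.93, 121 ± 2.68 and 129.8 ± 8.64 CPM in WT cells. Its log2 change at 48 h was −1.14 ± 0.09 in KO and −0.77 ± 0.09 in WT cells (limma, adjusted p = 5.86e-10 and 2.48e-07). HK1 averaged 719 ± 5.16, 299.9 ± 36.4, 189 ± 4.53 and 562 ± 5.66 CPM in KO cells, and 520.0 ± 71.3, 346 ± 18.4, 228 ± 6.84 and 353 ± 31.4 CPM in WT cells. It was lowest at 6 h in both genotypes and higher again at 48 h. Its log2 changes at 3, 6 and 48 h were −1.22, −1.84 and −0.41 in KO cells and −0.48, −1.05 and −0.57 in WT cells, all called, and each WT call held with WT 0 h library 1 left out and against it alone.

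Of the glucose transporters, SLC2A3 fell in KO cells by 1.12, 1.83 and 1.10 on the log2 scale at 3, 6 and 48 h (limma, adjusted p = 0.000448, 1e-06 and 0.000814). In WT cells it was called only at 6 h, at −0.80 ± 0.25, with 0.05 ± 0.25 at 3 h and −0.25 ± 0.25 at 48 h. The WT value at 48 h was 0.29 without WT 0 h library 1 and −1.35 against it alone, so its direction turned with that library. SLC2A1 fell in KO cells at 48 h, with 299, 285 and 321 CPM in KO 48 h libraries, and a change of −1.06 ± 0.20 (adjusted p = 0.000118). It had 346, 318 and 383 CPM in WT 48 h libraries, where the change was −0.01 ± 0.20, or 0.39 without WT 0 h library 1 and −0.79 against it alone. SLC2A1 rose at 3 h in both, at 0.56 ± 0.20 in KO (0.41, adjusted p = 0.1, without KO 3 h library 3, which had 1046 CPM against 766 and 792 CPM) and 1.29 ± 0.20 in WT cells. The interaction, the KO change minus the WT change, was called for SLC2A3 at 3 h only (−1.17, adjusted p = 0.0407), a call lost on leaving out each of 11 of 12 libraries in turn. For SLC2A1 it was called at 6 h and 48 h (−1.01 and −1.05, adjusted p = 0.0262 and 0.0239), calls lost on leaving out 6 and 5 of the 12 libraries. Against WT 0 h library 1 alone none of these 3 was called.

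Of the later enzymes, ENO2 fell most in KO cells. In KO cells it averaged 349 ± 5.03, 92.1 ± 8.45, 65.4 ± 2.01 and 123 ± 8.26 CPM at 0, 3, 6 and 48 h, with log2 changes of −1.87, −2.32 and −1.55 (limma, adjusted p = 1.58e-05, 7.22e-07 and 0.000225). In WT cells it averaged 217 ± 192, 104 ± 1.68, 72.6 ± 1.97 and 138 ± 15.3 CPM, and the change at 48 h was −0.31 ± 0.31, or 0.38 without WT 0 h library 1 and −1.67 against it alone. PFKL, the liver-type phosphofructokinase, rose by 48 h in both. It had 152, 159 and 166 CPM in KO 48 h libraries, against 86.6, 103 and 111 CPM in KO 0 h libraries, a change of 0.62 ± 0.17 (adjusted p = 0.00407). It had 162, 169 and 186 CPM in WT 48 h libraries, against 116, 63.1 and 66.9 CPM in WT 0 h libraries, a change of 1.10 ± 0.17 (adjusted p = 9.85e-06). PGK1 in WT cells changed by 0.81 ± 0.27 at 48 h (adjusted p = 0.0135), by 1.38 without WT 0 h library 1 and by −0.33 against it alone, so its direction also turned. ENO3, at 7.86 to 17.5 CPM in all libraries, fell at 48 h by 0.94 in KO and by 0.72 in WT cells on the log2 scale. PFN1, a gene that overlaps ENO3 on the other strand, had 238 to 888 CPM, and the strand setting of the counting is not given in the sources used here.

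Of the lactate transporters, SLC16A3 rose late and SLC16A1 fell. SLC16A3 averaged 64.2 ± 5.53, 26.1 ± 5.28, 10.9 ± 1 and 114 ± 10 CPM at 0, 3, 6 and 48 h in KO cells, and 24.8 ± 16.7, 31.2 ± 2.16, 16 ± 3.16 and 134 ± 30.4 CPM in WT cells. Its mean was lowest at 6 h and highest at 48 h in both. In WT cells the low at 6 h rested on 0 h library 1, at 43.8 CPM. WT 0 h library 2, at 12.2 CPM, lay below the WT 6 h range of 13.6 to 19.6 CPM, and library 3, at 18.4 CPM, lay within it. The log2 change at 48 h was 0.76 ± 0.28 in KO (limma, adjusted p = 0.0242; adjusted p up to 0.073 without KO 0 h library 1 or 2) and 2.59 ± 0.28 in WT cells (adjusted p = 4.69e-08). The WT change was 3.09 without WT 0 h library 1 and 1.58 against it alone. CSNK1D, which overlaps SLC16A3 on the other strand, had 96.2 to 236 CPM. SLC16A1 fell to 0.604 of its 0 h level in KO and to 0.501 of it in WT cells at 48 h (fitted fold changes, adjusted p = 4.44e-07 and 2.59e-09). LDHB stayed between 1137 and 1472 CPM in all 24 libraries. Its log2 change was called at 3 h and 6 h in KO cells (0.23 and 0.35) and at 48 h in WT cells (−0.22). The calls at 3 h and 48 h were lost without any 1 of 2 and of 3 of the 6 libraries compared. The CPM ratio of LDHB to LDHA was 0.43 to 0.46 at 0 h, 0.90 to 1.08 at 3 h, 1.04 to 1.09 at 6 h and 0.33 to 0.37 at 48 h in KO cells. In WT cells it was 0.51, 1.25 and 0.94 in the 3 libraries of 0 h, 0.68 to 0.69 at 3 h, 0.79 to 0.81 at 6 h and 0.39 to 0.45 at 48 h.

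The pyruvate dehydrogenase phosphatase subunits PDP1 and PDP2 changed in opposite ways at 3 and 6 h, and both were below their 0 h level at 48 h. PDP1 averaged 41.6 ± 2.18, 107 ± 9.72, 111 ± 0.853 and 30.4 ± 0.468 CPM at 0, 3, 6 and 48 h in KO cells, and 47.2 ± 5.5, 116 ± 2.82, 108 ± 2.26 and 26.6 ± 3.41 CPM in WT cells. It was high at 3 and 6 h and lowest at 48 h. Its log2 changes at 3, 6 and 48 h were 1.40, 1.50 and −0.50 in KO cells and 1.40, 1.33 and −0.84 in WT cells, all called in both. PDP2 averaged 66.6 ± 9.78 CPM at 0 h and 28 ± 2.13 to 29.3 ± 0.662 CPM later in KO cells, and 52 ± 10.5 CPM at 0 h and 23.7 ± 0.812 to 26.2 ± 0.923 CPM later in WT cells. It fell by 1.12, 1.08 and 1.29 on the log2 scale in KO cells and by 1.01, 0.83 and 1.03 in WT cells. The CPM ratio of PDK1 to PDP1 was 3.12 to 3.19 at 0 h, 0.84 to 1.04 over 3 and 6 h, and 19.6 to 20.9 at 48 h in KO cells. In WT cells it was 3.69, 1.15 and 1.70 in the 3 libraries of 0 h, 1.08 to 1.17 over 3 and 6 h, and 30.3 to 34.4 at 48 h.

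The other subunits of the complex moved less and not together. PDHA1 in KO cells fell by 0.66 at 3 h and by 0.59 at 6 h on the log2 scale and was level with 0 h at 48 h, at 0.14 ± 0.14. In WT cells it changed by −0.52 ± 0.14 at 48 h (limma, adjusted p = 0.00278), by −0.82 without WT 0 h library 1 and by 0.08 against it alone. DLAT and DLD rose at 3 and 6 h in both genotypes: DLD had 152, 161 and 165 CPM in KO 6 h libraries, against 104, 102 and 105 CPM in KO 0 h libraries, and 153, 139 and 149 CPM in WT 6 h libraries, against 114, 113 and 117 CPM in WT 0 h libraries. PDK2 fell at 3 and 6 h in both, by 1.00 and 1.23 in KO and by 0.81 and 1.04 in WT cells, and PDK4 fell at 48 h by 1.48 in KO and by 0.91 in WT cells. The WT value of PDK4 rested on 15, 6 and 2 reads in the WT 48 h libraries, and its call was lost without WT 48 h library 3 (−0.66, adjusted p = 0.0713) or WT 0 h library 1. MPC1, at 4.9 to 14.4 CPM over all libraries, rose at 6 h by 0.90 ± 0.22 in KO and by 0.82 ± 0.22 in WT cells, and at 3 h in WT cells (0.58 ± 0.22). WT 0 h library 1 had 4.9 CPM of MPC1, and its mates 10.9 CPM each. Without that library the WT change was 0.42 at 6 h (limma, adjusted p = 0.0468) and 0.18 at 3 h (adjusted p = 0.402). The 3 h call was also lost without WT 3 h library 2 or 3. MPC2, at 14.8 to 34 CPM, rose at 6 h and 48 h, by 0.34 and 0.41 in KO and by 0.63 and 0.67 in WT cells, and at 3 h in KO cells (0.36 ± 0.14). Its KO call was lost without any 1 of 4 of the 6 libraries compared at 6 h (limma, adjusted p up to 0.168). The same held for 3 of 6 at 3 h and 2 of 6 at 48 h, while the WT calls were kept. Genes on the other strand overlap several of these members. LAMB1, at 80.8 to 183 CPM, overlaps DLD. DCAF6, at 17.4 to 26.4 CPM, overlaps MPC2, and SAMD14, at 2.25 to 5.23 CPM, overlaps PDK2. SENP1, at 31.7 to 51.9 CPM, overlaps PFKM in the same way. If reads were counted without strand, those of each pair cannot be told apart.

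Whether the response to induction differed between genotypes was tested by the interaction, the KO change minus the WT change. At 3 h, 0 members were higher and 8 lower (3.59% and 5.45% of all genes), at 6 h 0 and 9 (3.12% and 5.46%), and at 48 h 1 and 4 (3.83% and 3.92%). These values rest on the 0 h libraries too: without WT 0 h library 1 they were 0 and 23 at 3 h, 0 and 24 at 6 h, and 2 and 21 at 48 h, with 25.3%, 25% and 25.9% of all genes called. Against that library alone they were 1 and 5, 1 and 3, and 4 and 0, with 13%, 12.9% and 9.34% called. HK1 and SLC16A3 at 3 and 6 h, and LDHA at 3 h, were called lower under all 3 choices. For HK1 the interaction was −0.74 ± 0.13 at 3 h and −0.80 ± 0.13 at 6 h (limma, adjusted p = 0.000747 and 0.000321), with −0.85 and −0.88 without WT 0 h library 1 and −0.54 and −0.57 against it alone. For SLC16A3 it was −1.89 ± 0.39 and −2.14 ± 0.39 (adjusted p = 0.00298 and 0.0009), with −2.40 and −2.62, and −0.89 and −1.12. For PDK1 at 48 h it was −1.02 ± 0.27 (adjusted p = 0.0214), with −1.35 and −0.20, so that call rested on WT 0 h libraries 2 and 3.

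Levels of different genes were compared per kilobase of annotated exon. At 0 h GAPDH was the highest of the 34, at 1665 ± 92.6 CPM per kb in KO and 1400.3 ± 388 CPM per kb in WT cells, followed by ENO1 at 694 ± 33.3 CPM per kb in KO and 539 ± 219 CPM per kb in WT cells, while PDK4 was the lowest, at 0.26 ± 0.07 CPM per kb in KO and 0.126 ± 0.0616 CPM per kb in WT cells. The spread over WT libraries was wider than the gap between the genotypes for GAPDH and ENO1. HK1 exceeded HK2 per kb at 48 h, at 89.2 ± 0.9 and 21.9 ± 1.68 CPM per kb in KO, and 56.1 ± 4.98 and 21.4 ± 1.42 CPM per kb in WT cells. Pseudogene copies of the members summed to at most 1.33% of the member's level, for PGAM1, and SLC2A14, a near copy of SLC2A3, reached at most 0.50% of it.

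Genes around the pathway were read from lists. Of 11 regulators of glycolytic flux tested, 4 were called higher and 1 lower in KO than in WT cells at 0 h, where 8.77% of all genes were called higher and 6.52% lower. PFKFB4, which makes the activator of phosphofructokinase, had 129.6, 120.3 and 123 CPM in KO 0 h libraries, against 58.9, 30.5 and 43.2 CPM in WT 0 h libraries, at a log2 difference of 1.59 ± 0.15 (limma, adjusted p = 3.6e-07). EGLN1, the oxygen sensor that marks hypoxia-inducible factors for degradation, had 81.7, 75.5 and 72.7 CPM in KO and 48.5, 18.9 and 25.6 CPM in WT libraries, at 1.46 ± 0.19 (adjusted p = 2.33e-05). Both were above every WT library in every KO library, WT library 1 included. Of 6 glycogen genes, 4 were higher and 0 lower; PGM1, which links glucose 1-phosphate and 6-phosphate, had 279, 296 and 302 CPM in KO and 245, 86.5 and 110.1 CPM in WT libraries (1.19 ± 0.21). Of 5 serine synthesis genes, 0 were higher and 2 lower; PSAT1, a transaminase of that branch, had 119.6, 124 and 133 CPM in KO and 107, 539.7 and 393 CPM in WT libraries (−1.12 ± 0.30), so WT library 1 was again on the KO side. Of 16 genes of the tricarboxylic acid cycle 1 was higher and 1 lower, of 14 other isozymes and subunits 1 and 1, of 7 pentose phosphate genes 0 and 1, and of 4 gluconeogenesis genes 0 and 1. The list medians were 0.21, 0.52, −0.45, −0.06, 0.01, −0.09 and −0.26 in the order given, against 0.01 over all genes. Leaving out WT 0 h library 1, where 33.1% of all genes were called, 5 regulators were higher and 1 lower, 5 glycogen genes were higher and 1 lower, and 0 serine synthesis genes were higher and 4 lower. Against that library alone, where 15.9% were called, 4 regulators were higher and 2 lower, and no glycogen or serine synthesis gene was called. PFKFB4 and EGLN1 were called under both choices, at 1.80 and 1.81 without that library and 1.12 and 0.71 against it alone. PGM1 and PSAT1 were at 1.61 and −1.85 without it and at 0.30 and 0.27 against it alone (adjusted p = 0.0582 and 0.0558), so the direction of PSAT1 turned.

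At 48 h, 3 of the 11 regulators were higher in KO than in WT cells and 0 lower, where 6.86% of all genes were higher and 5.07% lower: PFKFB4 (0.69 ± 0.15), EGLN3, a further oxygen sensor (0.57 ± 0.12), and MYC (0.62 ± 0.09). Between 48 h and 0 h in WT cells, MYC changed by −1.58 ± 0.09, MYCN by −2.05 ± 0.13 and EGLN3 by −1.55 ± 0.12 (limma, adjusted p = 1.22e-12, 3.87e-12 and 1.33e-10). MYC had 32.3, 25.7 and 27.8 CPM in WT 48 h libraries, against 79.8, 90 and 84.4 CPM in WT 0 h libraries, with no overlap and with library 1 close to its mates. Of the glycogen genes, GBE1, the branching enzyme, rose by 1.79 ± 0.16 and UGP2, which makes UDP-glucose, changed by −2.12 ± 0.11 (adjusted p = 3.07e-09 and 1.86e-13). UGP2 had 281, 273 and 237 CPM in WT 48 h libraries, against 1269, 1031 and 1106 CPM in WT 0 h libraries. SLC16A7, the monocarboxylate transporter MCT2, changed by −1.46 ± 0.15 but was at 1.11 to 4.4 CPM in these libraries.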

How the data were processed

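mRNA of 24 libraries (8 groups of 3, grouped by the labels) was prepared with a TruSeq stranded mRNA kit, per the labels' protocols. The gene table deposited by the authors holds CPM (reads relative to the library total, with no correction for gene length). Its header runs 1 cell off; once corrected, 24 of 24 libraries matched their own name best in the second deposited table, which holds raw counts per transcript. The submitters' processing notes name hg38 and DESeq2; the aligner, the annotation and the strand setting are not given in the sources used here.

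Every CPM value was a whole number of reads within 0.1 read, so reads were recovered (29896358 to 50451908 per library); 3 reads are 0.0595 to 0.1 CPM. Symbols came from GENCODE 29 (52338 of 57820 identifiers). Genes were kept by filterByExpr (minimum of 10 reads, 15 in total), CPM was divided by TMM factors, and log2(value + 0.25), which understates changes of low genes, was fitted by limma 3.58.1 (R 4.3.3) with a trend, all 8 groups in 1 fit and no covariate. Tests were two-sided, adjusted by Benjamini and Hochberg over all 19835 genes in each of 13 comparisons. Errors are SE for log2 values and SD for CPM. The fitting was tested on simulated data.

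Described library by library were members called between KO and WT with a log2 difference of at least 0.5, or at 48 h against 0 h of at least 1; genes of the other lists are named at an absolute log2 change of at least 1, at most 4 a list. PFKFB3, TIGAR and others are counted only. The members, the lists and the values given outside this rule were chosen with earlier results of these data known. Alternatives were RLE factors, CPM as deposited, other filters and pseudocounts, a replicate block, only the groups compared, libraries left out, and edgeR 4.0.16 and DESeq2 1.42.0 on the recovered reads; keeping WT 0 h library 1 alone of its group was added after seeing the data. No 2 libraries of a group agreed within sampling noise (chi-square per gene 3.06 to 145.5).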

Additional observations from a re-analysis of the deposited data

Results flagged for a closer look

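These results mark genes whose change from 0 h differed between KO and WT cells by a test of the difference itself (limma interaction, KO change minus WT change, log2). All share the WT 0 h libraries, of which library 1 stood apart. Without that library all 22 passed the threshold in the same direction.

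At 3 h the change was lower in KO cells for the glucose transporter SLC2A3 (−1.17), hexokinase HK1 (−0.74), aldolase ALDOC (−0.85), PGK1 (−1.30), lactate dehydrogenase LDHA (−1.30), the lactate exporter SLC16A3 (−1.89) and the kinases PDK1 (−0.94) and PDK3 (−0.82). With WT 0 h library 1 alone the values were −0.89 to −0.08, and HK1, LDHA and SLC16A3 of these 8 passed the threshold. Leaving out 1 library at a time, the call of SLC2A3 was lost for 11 of 12 libraries, of PGK1 for 9, of ALDOC for 8 and of PDK1 and PDK3 for 7, among them KO and 3 h libraries.

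At 6 h it was lower in KO cells for SLC2A1 (−1.01), HK1 (−0.80), HK2 (−0.48), PFKP (−0.74), PGAM1 (−0.58), LDHA (−1.11), SLC16A3 (−2.14), PDK1 (−0.93) and PDK3 (−0.93). With WT 0 h library 1 alone the values were −1.12 to −0.14, and HK1 and SLC16A3 of these 9 passed. The call of PDK1 was lost for 9 of 12 libraries, of SLC2A1 for 6, of HK2 for 5, of PGAM1 for 3 and of PFKP for 1.

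At 48 h it was lower for SLC2A1 (−1.05), SLC16A3 (−1.82), PDHB (−0.37) and PDK1 (−1.02), and higher for PDHA1 (0.66). With WT 0 h library 1 alone none of these 5 passed. The call of PDHA1 was lost for 10 of 12 libraries, of PDHB for 9 and of SLC2A1 and PDK1 for 5, while that of SLC16A3 was kept for all 12.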

How the results depend on the processing

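The 27 results described library by library under the size rule above had 474 alternatives. Of these, 398 kept their direction and side of the threshold, 70 lost the call and 6 reversed. Calls outside that rule were also lost at other hours, such as SLC16A1 between KO and WT at 48 h and MPC1 in WT cells at 3 h. Of the 27, all that lost a call or reversed were KO against WT at 0 h. Reversed against WT 0 h library 1 alone were SLC2A3 (−0.0774), GPI (−0.12), ALDOA (−0.18), PGK1 (−0.24), ENO2 (−0.28) and PDK1 (−0.20), with adjusted p of 0.0721 to 0.717; fewer samples entered there, and the cause was otherwise not tested.

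Counts of members called for KO against WT at 0 h, 18, were 10 with no filter, 0 with only the groups compared, 30 without the 3 libraries that stood apart, 5 against WT 0 h library 1 alone and 10 by edgeR, where 6.96%, 1.06%, 46.8%, 15.9% and 14% of all genes were called. At 3 h, 6 h and 48 h (0, 0 and 3) they were 2, 14 and 5 with only the groups compared (2.11%, 15.8% and 16.3% of all genes) and 8, 10 and 12 without the 3 libraries (9.19%, 12.1% and 23.8%). For WT 3 h, 6 h and 48 h against 0 h (15, 20 and 21) they were 9, 12 and 13 (47.4%, 55.5% and 35.1%), and 24, 31 and 32 (66.7%, 70.4% and 63.5%); for KO 3 h (20) it was 31 without the 3 libraries (73.5%). For the interactions at 3, 6 and 48 h (8, 9 and 5) they were 2, 4 and 0 with only the groups compared (3.47%, 7.35% and 3.5%), 27, 30 and 27 without the 3 libraries (38.1%, 40.0% and 38.4%), 3 and 1 at 3 and 48 h with no filter (3.94% and 3.54%), 15 at 3 h with a filter of 5 CPM (11.9%), 4 and 3 at 3 and 48 h by edgeR (8.40% and 6.26%), and 4 at 6 h against WT 0 h library 1 alone (12.9%).

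Leaving out 1 library gave 5 to 26 members for KO against WT at 0 h, 0 to 0 at 3 and at 6 h and 2 to 4 at 48 h; 13 to 23, 19 to 29 and 18 to 31 for WT 3, 6 and 48 h; 17 to 22, 20 to 22 and 17 to 20 for KO; and 3 to 23, 4 to 24 and 1 to 23 for the interactions. The count of 26 came without WT 0 h library 1 and that of 5 without library 2. CPM as deposited moved the median of all genes by up to −0.11 (WT 6 h). The replicate numbers did not pair the samples (same-number r −0.19 to 0.22, 8 of 84 over 0.1); with a replicate block the count was 14 for KO against WT at 0 h, where ALDOA, ENO1, PDHB and PDK4 lost their calls, 19 and 23 for KO 3 and 6 h, and as before elsewhere. Depth did not limit the members except PDK4, near the level of 3 reads at 6 h.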
